A study of Mus musculus with 4 samples.

Results

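The genes described here encode the machinery of homologous recombination and of the Fanconi anemia pathway, with the checkpoint kinases that signal to it. They were taken as the loci whose gene name equals 1 of 35 listed symbols, in either of the deposited tables. Of the 35, 34 had a locus of their own name in both tables and 1, Rad54b, did not, against 11728 genes named in both tables and 10261 tested. RNA was sequenced from mouse embryonic stem (ES) cells, pluripotent cells taken from the early embryo and grown in culture. All cells carried a tamoxifen-responsive Cre recombinase (Rosa26CreER), 1 floxed Chd1 allele and 1 null allele (Rosa26CreER;Chd1fl/-). Control cells received ethanol and so kept 1 functional allele, and the Chd1-/- cells received 1 µM tamoxifen for 48 to 72 h, followed in both groups by 3 to 5 passages without the drug in serum with LIF. Each of 2 sets held 1 control and 1 Chd1-null library (n = 2 pairs). The protocol names 2 independently derived lines without tying a set to a line, and since only the Chd1-null cells saw tamoxifen, drug exposure, Cre activity and loss of Chd1 cannot be told apart. Chd1 encodes an ATP-dependent chromatin remodeler of transcribed genes.

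Homologous recombination repairs a broken chromosome by copying from an intact sister, and is used mostly in S and G2 phase. The Mre11-Rad50-Nbn complex and its cofactor CtIP (Rbbp8) trim the break to a single strand, Brca1-Bard1, Palb2 and Brca2 prepare it for strand exchange, and Rad51c, Rad51d, Xrcc2, Xrcc3 and the Rad54 proteins assist the exchange. Joined molecules are then dissolved by Blm with Top3a and Rmi1 or cut by nucleases such as Mus81-Eme1 on the Slx4 scaffold. In the Fanconi anemia pathway a core complex with the ligase Fancl ubiquitinates Fancd2 and Fanci at crosslinks that stall replication. Embryonic stem cells divide fast, with a large share of cells in S phase, and rely on this pathway.

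Values were taken as FPKM, although the deposited header gives no unit. FPKM are fragments scaled to transcript length and sequencing depth, so levels can be compared between genes. Libraries started from the RNA of a fixed count of living cells plus ERCC control transcripts, and how these entered the deposited scale is not given in the sources used here. The sample labels give 1 µg of RNA for each library, and whether the deposited scale is per cell was not tested. FPKM summed over loci to between 466994 and 719549 per library, and read depth is unknown. Chd1 stood at 20.7% of its control in set 1 and at 47.7% in set 2. All 12 stem cell markers on the list were measured, with summed levels of 2886 and 3542 FPKM in the controls and 2117 and 1992 in the Chd1-null libraries. Of the 12, 10 fell in limma (83.3%, against 9.8% of all tested genes), all were lower in both sets, and their median log2 change was -0.81. After the median log2 ratio of all tested genes was subtracted from each set, 1 of the 12 fell, Klf2 (limma adjusted p = 0.0248). Of all tested genes 0.214% then fell. With one common prior variance, or without the set as a block, 0 of all tested genes fell in limma. The part of the marker difference in the values below was not tested. Of 10 feeder fibroblast markers 5 were measured in set 1 and 8 in set 2, with sums of 2.69 and 2.65 FPKM in set 1 and 10.4 and 5.86 in set 2. Of 10 markers of differentiating lineages 6 and 7 were measured, with sums of 6.76 and 2.93 in set 1 and 6.05 and 7.39 in set 2, so the sums of the sets rest on different genes. Neither table listed Lum, Twist2, Sox17, Foxa2 or Mixl1. In such bulk samples, fewer cells of a type and less RNA per cell cannot be told apart.

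All 34 genes were expressed at moderate levels, with means over the 4 libraries from 2.82 FPKM for Brip1 to 41.7 for Chek2 and a median of 9.86, against a median of 9.07 over all tested genes. No member was lost to the filter of a mean of at least 1 FPKM. The summed level of the 34 genes went from 430.5 FPKM in control 1 to 330.1 in Chd1-null 1, and from 491.7 in control 2 to 365.0 in Chd1-null 2. The Chd1-null sums were thus 76.7% and 74.2% of their controls. As a share of all FPKM, the 34 genes took 0.0736% and 0.0707% in set 1 and 0.0683% and 0.0705% in set 2, so the set of genes as a whole kept pace with the library to which it belonged.

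**Figure D1:**
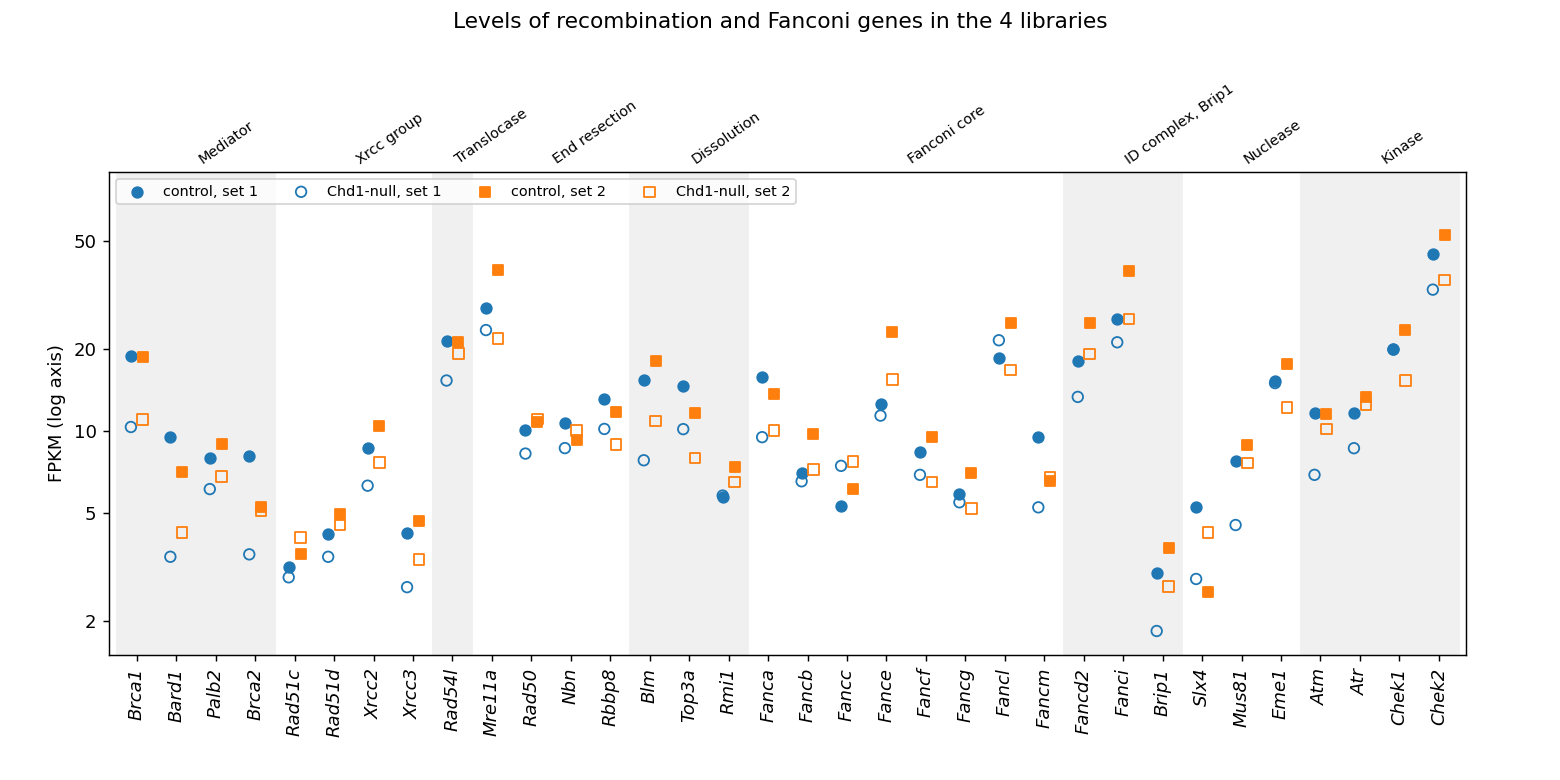
FPKM (log axis) of each of the 34 genes in the 4 libraries, grouped by role; filled symbols are control and open symbols Chd1-null, circles set 1 and squares set 2. Chek2 was the highest gene in every library, and open symbols lie below filled ones of the same set for 31 genes in set 1 and 28 in set 2.

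Brca1, Bard1 and Blm were the members that fell, and none rose. The test was limma on log2(FPKM + 0.1) with the set as a block, adjusted over all 10261 genes at 0.05, and this log scale understates the change of low genes. The 3 of 34 (8.82%) compare with 9.8% of all tested genes that fell, and 0 of 34 with 0.0682% that rose. At an unadjusted p under 0.05, 8 members were lower (Chek2, Fanca, Fanci, Mre11a and Top3a beside the 3) and 0 higher in limma. Over all 10261 tested genes 2995 had such a p, 27 of them higher. The share of members that fell was therefore near the background.

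Most members had lower values in Chd1-null cells without passing the test. In both sets 26 of the 34 were lower (76.5%, against 72.4% of all tested genes) and 1, Fancc, was higher (2.94%, against 2.81%). Both Chd1-null values lay below both control values for 20 members (58.8%, against 52.6%) and above them for 1, again Fancc (2.94%, against 0.867%). The members' median log2 ratios were -0.40 (set 1) and -0.43 (set 2), beside -0.46 and -0.33 for all tested genes. Over both sets the medians were -0.39 for the members and -0.41 for all tested genes.

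After the median log2 ratio of all tested genes was subtracted from each set, 0 of the 34 fell and 0 rose in limma, against 0.214% and 0.146% of all tested genes. At an unadjusted p under 0.05 Bard1 was lower and Fancc higher, against 645 of the 10261 tested genes, 283 of them higher. The lowest limma adjusted p among members was 0.411. Below that median in both sets were 7 members (20.6%, against 24.6% of all tested genes), namely Brca1, Bard1, Blm, Top3a, Fanca, Brip1 and Xrcc3. Another 7 (20.6%, against 24.6%) lay above it in both, namely Fancc, Rad51c, Rad51d, Rmi1, Rad50, Nbn and Atr.

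The 3 calls rest on the variance model and the scaling. Limma took all genes of a similar level to share one spread between the sets (prior degrees of freedom Inf), so a gene's own spread does not enter its SE. With one common prior variance 0 members passed (limma adjusted p = 0.288 for each of the 3), and without the set as a block 0 (limma adjusted p = 0.461 for each). Either way 3 members had an unadjusted p under 0.05 in limma, against 1718 and 1043 of the 10261 tested genes. With each set's dependence on expression level removed 0 passed (limma adjusted p from 0.0641 to 0.0677 for the 3). In that fit 8 members had an unadjusted p under 0.05 in limma, against 3361 of the 10261 tested genes. The log2 fold changes of Brca1, Blm and Bard1 stayed at -0.83, -0.86 and -1.06. Scaled to library totals, which removes a shift common to all genes, 0 passed (limma adjusted p from 0.792 to 0.840), and the log2 fold changes of Brca1, Blm and Bard1 were -0.43, -0.48 and -0.71 in place of -0.81, -0.85 and -1.08. With a mean of at least 5 FPKM required Bard1 did not pass (limma adjusted p = 0.0683).

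**Figure D2:**
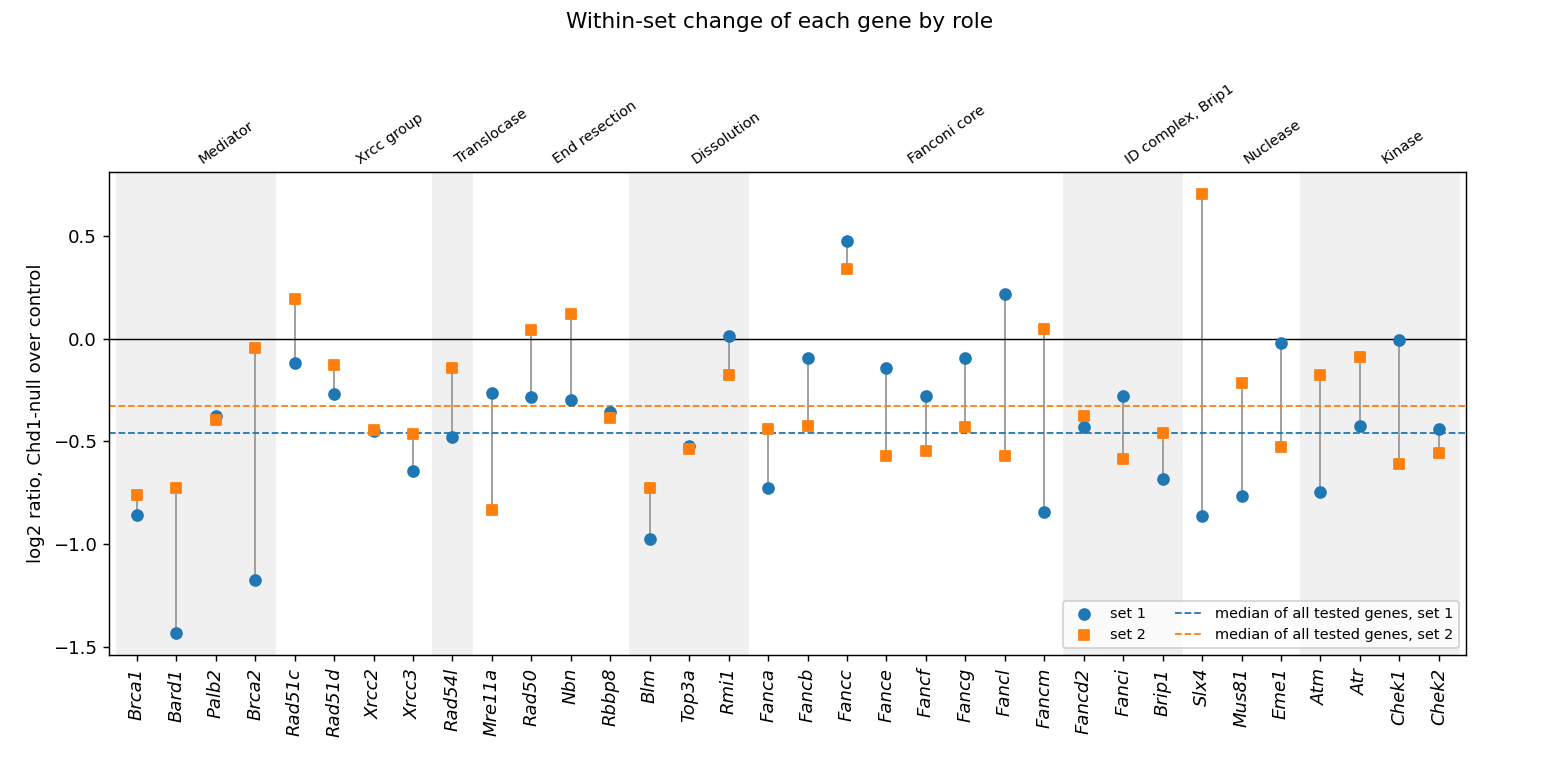
Log2 ratio of Chd1-null over control for each gene in set 1 (circles) and set 2 (squares), grouped by role, with dashed lines at the median of all tested genes in each set (-0.46 and -0.33). Brca1, Bard1 and Blm lie below both lines in both sets, Fancc lies above 0 in both, and Slx4 and Brca2 have the longest lines between the sets.

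Among the mediators, which prepare the single strand for exchange, Brca1 and its partner Bard1 fell while Palb2 and Brca2 did not pass. Brca1, a ubiquitin ligase and scaffold of end resection, stood at 18.8 and 18.7 FPKM in the controls of set 1 and set 2, and at 10.4 and 11.0 in the matching Chd1-null libraries. The controls were nearly equal and both Chd1-null values lay well below them, at 55.0% and 58.7% of control. The log2 fold change was -0.81 (SE 0.24, n = 2 pairs, limma adjusted p = 0.0156), and the 2 sets gave -0.86 and -0.76.

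Bard1, the obligate partner of Brca1 in the ligase, had 9.50 FPKM in the control and 3.45 in the Chd1-null library of set 1, and 7.09 and 4.24 in those of set 2. The groups did not overlap, and the drop was deeper in set 1. Its log2 fold change was -1.08 (SE 0.33, limma adjusted p = 0.0211), with 36.3% of control left in set 1 and 59.7% in set 2. Within a library, Brca1 stood at 1.98 times the level of Bard1 in control 1 and 3.00 times in Chd1-null 1, but at 2.64 and 2.60 times in set 2. The balance of the partners differed in set 1 and hardly in set 2, and this ratio of 2 genes in 1 library does not depend on how libraries were scaled.

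Palb2, which bridges Brca1 to Brca2, had 7.98 and 6.12 FPKM in set 1 and 8.996 and 6.82 in set 2, or 76.7% and 75.8% of control. Both sets gave almost the same ratio, close to that of the median gene (log2 fold change -0.39, SE 0.30, limma adjusted p = 0.357). Brca2, a large mediator that binds the resected strand, had 8.07 and 3.52 FPKM in set 1 against 5.25 and 5.08 in set 2. The Chd1-null value was far below its control in set 1 and nearly level with it in set 2, with log2 ratios of -1.17 and -0.05, and the gene did not pass (limma adjusted p = 0.213).

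Blm, the RecQ helicase that dissolves double Holliday junctions, was the member with the lowest adjusted p. It had 15.4 and 18.1 FPKM in the controls of set 1 and set 2, and 7.81 and 10.9 in the matching Chd1-null libraries. Both Chd1-null values lay below both controls, at 50.6% and 60.2% of control. The log2 fold change was -0.85 (SE 0.25, limma adjusted p = 0.0147).

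The partners of Blm did not pass the test. Top3a, the topoisomerase of the complex, had 14.7 and 10.2 FPKM in set 1 and 11.6 and 7.98 in set 2. Its log2 ratios were nearly the same in both sets (-0.52 and -0.54), without passing the test (limma adjusted p = 0.153). Rmi1, the stabilizing subunit, had 5.73 and 5.79 FPKM in set 1 and 7.35 and 6.50 in set 2, and its groups overlapped (log2 fold change -0.08, SE 0.32, limma adjusted p = 0.860). Blm stood at 2.69 times the level of Rmi1 in the control and 1.35 times in the Chd1-null library of set 1, and at 2.46 and 1.68 times in those of set 2, lower without Chd1 each time.

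The sequences just upstream of the 3 genes that fell, and of Fancc, which was higher in both sets, are shown to let their promoters be compared. Each is the 250 bases before the RefSeq transcription start, 5′ to 3′ on the strand of the gene, in build GRCm38.p6: Brca1 at chr11:101551956-101552205, Bard1 at chr1:71102973-71103222, Blm at chr7:80534999-80535248 and Fancc at chr13:63431746-63431995, all on the minus strand. Capitals mark matches, on either strand, to CCAAT (the box bound by NF-Y), to TTTGAA (the CHR element of cell cycle genes) and to TTTCCCGC (an E2F element).
Brca1: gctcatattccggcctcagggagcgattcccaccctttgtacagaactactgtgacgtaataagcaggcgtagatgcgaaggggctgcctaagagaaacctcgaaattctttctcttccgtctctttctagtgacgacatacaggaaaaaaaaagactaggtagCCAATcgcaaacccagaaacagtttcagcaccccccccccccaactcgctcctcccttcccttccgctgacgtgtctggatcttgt
Bard1: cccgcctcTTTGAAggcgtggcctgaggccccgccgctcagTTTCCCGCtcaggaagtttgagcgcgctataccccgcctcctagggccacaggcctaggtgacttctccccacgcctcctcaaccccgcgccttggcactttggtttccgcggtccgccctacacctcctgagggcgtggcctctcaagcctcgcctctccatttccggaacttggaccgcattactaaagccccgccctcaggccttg
Blm: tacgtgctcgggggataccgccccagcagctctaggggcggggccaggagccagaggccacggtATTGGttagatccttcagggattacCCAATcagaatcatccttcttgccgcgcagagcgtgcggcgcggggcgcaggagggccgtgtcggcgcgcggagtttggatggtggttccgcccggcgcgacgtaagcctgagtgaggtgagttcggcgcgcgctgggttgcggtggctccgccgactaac
Fancc: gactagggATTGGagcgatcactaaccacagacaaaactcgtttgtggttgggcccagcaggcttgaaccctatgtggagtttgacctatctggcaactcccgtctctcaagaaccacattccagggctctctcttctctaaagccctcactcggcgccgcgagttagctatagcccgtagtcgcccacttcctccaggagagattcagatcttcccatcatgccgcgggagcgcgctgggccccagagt
The capitals show a CCAAT box in Brca1, 2 in Blm and 1 in Fancc, and an E2F and a CHR element in Bard1. The GC box GGGCGG was also searched but is not marked, and was present in Bard1 and Blm and in neither Brca1 nor Fancc. No motif was shared by the 3 genes that fell but lacking in Fancc.

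RefSeq promoters were matched for 27 of the 35 members (30 entries, with more than 1 start for some). Motifs were searched in the 250 bases on both strands, and no motif searched contains another. CCAAT was present in 17 of the 30 (56.7%), against 36.1% of the 9959 promoters of tested genes and 33.8% of all 32851 promoters. An E2F element, TTTCCCGC or TTTGGCGC, was present in 4 (13.3%, those of Bard1, Brca2, Chek2 and Fancg), against 2.62% and 1.30%. The GC box GGGCGG was in 60.0% against 60.4% of promoters of tested genes, the NRF1 core GCATGCGC in 10.0% against 4.83%, TTTGAA in 3.33% against 9.96%, and the TATA box TATAAA in 3.33% against 5.82%. These matches describe letters in a window and are not measured binding.

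None of the 4 genes Rad51c, Rad51d, Xrcc2 and Xrcc3, drawn as the Xrcc group in the plots by role, passed the test in limma, and 0 had an unadjusted p under 0.05. Xrcc3 had 4.22 and 2.67 FPKM in set 1 and 4.68 and 3.37 in set 2 (log2 fold change -0.55, SE 0.40, limma adjusted p = 0.327), with both Chd1-null values below both controls. Xrcc2 went the same way in both sets, with 8.63 and 6.30 FPKM in set 1 and 10.5 and 7.68 in set 2, at 73.0% and 73.3% of control. The other two were closer to their controls. Rad51d had 4.18 and 3.45 FPKM in set 1 and 4.94 and 4.52 in set 2. Rad51c had 3.16 and 2.90 in set 1 and 3.54 and 4.06 in set 2, lower in one set and higher in the other (log2 fold change 0.04, SE 0.41, limma adjusted p = 0.954).

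Of the Rad54 translocases, which remodel DNA during strand exchange, only Rad54l had a locus of its own. It had 21.4 and 15.3 FPKM in set 1 and 21.3 and 19.3 in set 2, with equal controls and a larger difference in set 1 (log2 fold change -0.31, SE 0.22, limma adjusted p = 0.316). Rad54b was merged with its neighbour Fsbp into a single locus in both tables. That locus had 6.90 and 4.62 FPKM in set 1 and 16.8 and 10.5 in set 2, at 67.0% and 62.5% of control. What part of it came from Rad54b was not tested, and it entered no count.

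None of the 4 genes of end resection passed in limma, with Mre11a alone at an unadjusted p under 0.05. Mre11a, the nuclease of the Mre11-Rad50-Nbn complex, was the most abundant of the 4, with 28.3 and 23.5 FPKM in set 1 and 39.1 and 21.9 in set 2. Both Chd1-null values were below both controls, and the difference was larger in set 2, where the control was highest (log2 fold change -0.55, SE 0.20, limma adjusted p = 0.0559). Rad50, the ATPase that tethers ends, had 10.1 and 8.27 FPKM in set 1 and 10.8 and 11.1 in set 2. Nbn, which recruits Atm, had 10.7 and 8.66 in set 1 and 9.25 and 10.1 in set 2 (log2 fold change -0.09, SE 0.27, limma adjusted p = 0.819). For both, the groups overlapped.

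Rad50 and Nbn stayed at nearly the same proportion to each other, with Nbn at 1.06 and 1.05 times Rad50 in set 1 and 0.858 and 0.907 times in set 2. Mre11a stood at 2.81 and 2.85 times Rad50 in set 1, but at 3.63 and 1.98 times in set 2. The transcripts of the complex thus kept their proportions in set 1 and not in set 2. Rbbp8, the CtIP cofactor, had 13.1 and 10.2 FPKM in set 1 and 11.7 and 8.94 in set 2, with almost equal log2 ratios of -0.36 and -0.39.

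In the Fanconi core complex, the ubiquitin ligase assembly of the pathway, 0 of 8 genes passed in limma (Fanca alone had an unadjusted p under 0.05). The directions were mixed: 5 were lower in both sets (72.4% of all tested genes were), 1 was higher in both (2.81%) and 2 went opposite ways. The group's median log2 ratios were -0.12 and -0.44 in the respective sets, above the median gene in set 1 (-0.46) and below it in set 2 (-0.33). Fanca, a large scaffold subunit, was the lowest, with 15.8 and 9.50 FPKM in set 1 and 13.7 and 10.1 in set 2 (log2 fold change -0.59, SE 0.25, limma adjusted p = 0.105). Its groups did not overlap.

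Fancc, which joins Fance and Fancf in a subcomplex, was the single member with higher values in both sets. It had 5.32 and 6.10 FPKM in the controls of set 1 and set 2, and 7.45 and 7.74 in the matching Chd1-null libraries. Both Chd1-null values lay above both controls, at 140.0% and 126.9% of control. The log2 fold change of 0.41 (SE 0.31) did not pass (limma adjusted p = 0.352), nor did the value of 0.80 relative to the median gene (limma adjusted p = 0.411).

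The partners of Fancc went the other way. Fance, the link to Fancd2, had 12.6 and 11.4 FPKM in set 1 and 23.1 and 15.5 in set 2. Fancf, an adaptor of the complex, had 8.39 and 6.91 in set 1 and 9.52 and 6.49 in set 2. Both were lower in both sets, by more in set 2.

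Of the remaining core genes, Fancg and the X-linked Fancb had almost the same ratios. Fancg had 5.86 and 5.47 FPKM in set 1 and 7.03 and 5.19 in set 2, and Fancb 6.99 and 6.54 in set 1 and 9.75 and 7.23 in set 2. Fancl, the catalytic ligase, was higher in Chd1-null cells in set 1 (18.5 and 21.6 FPKM) and lower in set 2 (25.02 and 16.8). Fancm, the translocase that brings the complex to DNA, had the opposite pattern, with 9.50 and 5.24 in set 1 and 6.55 and 6.78 in set 2. No direction can be given for these last 2 genes.

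Of the substrates of the core complex, Fancd2 lay close to the median gene in both sets. It had 18.0 and 13.4 FPKM in set 1 and 24.9 and 19.2 in set 2 (log2 fold change -0.40, SE 0.22, limma adjusted p = 0.202). Fanci, its partner in the clamp, had 25.8 and 21.2 in set 1 and 38.9 and 25.8 in set 2. Both were lower in both sets, while the difference between the control libraries made the groups overlap. Fanci stood at 1.43 and 1.59 times Fancd2 in set 1 and at 1.56 and 1.35 times in set 2. Brip1, a helicase that binds Brca1, was the lowest expressed member, with 3.02 and 1.84 FPKM in set 1 and 3.73 and 2.68 in set 2. Its groups did not overlap (log2 fold change -0.57, SE 0.46, limma adjusted p = 0.374).

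Among the structure-selective nucleases, 0 of 3 passed in limma and 0 had an unadjusted p under 0.05. Mus81, the catalytic subunit, had 7.76 and 4.52 FPKM in set 1 and 8.89 and 7.64 in set 2 (log2 fold change -0.49, SE 0.30, limma adjusted p = 0.256), with both Chd1-null values below both controls. Eme1, its partner, showed almost no difference in set 1 (15.3 and 15.0 FPKM) and a lower value in set 2 (17.7 and 12.2). Eme1 therefore stood at 1.97 and 3.32 times Mus81 in set 1 and at 1.99 and 1.60 times in set 2. The controls of the sets gave the same ratio, and the Chd1-null libraries departed from it in opposite directions.

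Slx4, the scaffold that holds these nucleases, differed most between the sets of all members. It had 5.28 and 2.86 FPKM in set 1, and 2.56 and 4.25 in set 2. The log2 ratios were -0.86 and 0.71, the groups overlapped, and no direction can be given (log2 fold change -0.08, SE 0.40, limma adjusted p = 0.897).

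All 4 checkpoint kinases were lower in both sets, as were 72.4% of all tested genes. Of the kinases 0 passed in limma, with Chek2 alone at an unadjusted p under 0.05. Chek2, the effector kinase downstream of Atm, was the highest member in every library, with 44.9 and 33.1 FPKM in set 1 and 52.8 and 35.9 in set 2. Its groups did not overlap (log2 fold change -0.50, SE 0.19, limma adjusted p = 0.0634). With each set's dependence on transcript length removed, a choice made after seeing the data, it passed (limma adjusted p = 0.0206). In that fit 1824 of 9625 tested genes fell. Chek1, the effector of Atr in S phase, had nearly the same value in both libraries of set 1 (20.04 and 19.9) and 23.5 and 15.4 in set 2.

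The apical kinases had the reverse pattern. Atm, the sensor kinase of double-strand breaks, had 11.7 and 6.91 FPKM in set 1 and 11.5 and 10.2 in set 2. Atr, which responds to single-stranded DNA, had 11.7 and 8.65 in set 1 and 13.3 and 12.5 in set 2 (log2 fold change -0.26, SE 0.25, limma adjusted p = 0.465). Both had the larger difference in set 1, where their effectors had the smaller one.

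By role, the median log2 ratios of set 1 and set 2 were -1.02 and -0.56 for the mediators, -0.36 and -0.29 for the Xrcc group, and -0.29 and -0.17 for end resection. They were -0.52 and -0.54 for dissolution, -0.12 and -0.44 for the Fanconi core, and -0.43 and -0.46 for Fancd2, Fanci and Brip1. For the nucleases they were -0.77 and -0.22, and for the kinases -0.43 and -0.37. The mediators were the lowest role in both sets, while the order of the others differed between the sets. With 3 to 8 genes a role these medians are descriptions, and no difference between roles was tested.

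**Figure D3:**
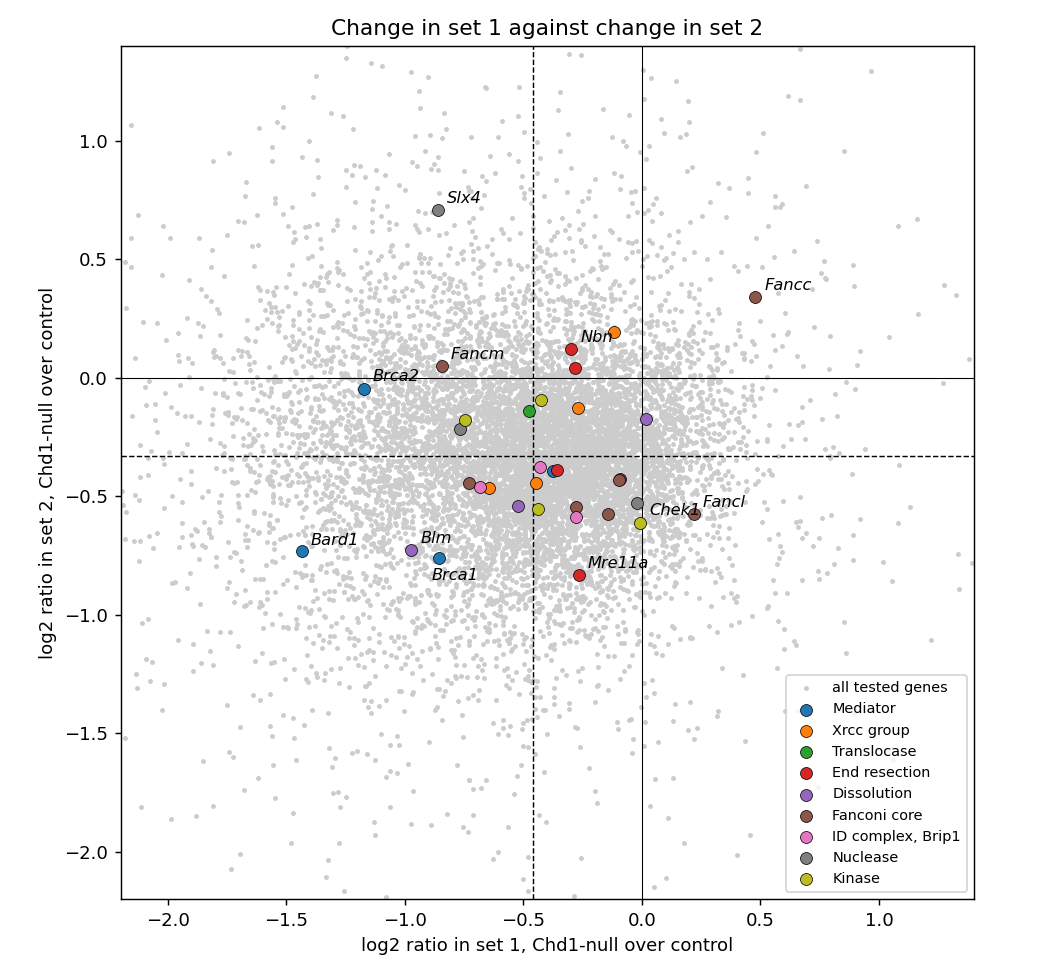
Log2 ratio in set 1 (horizontal) against that in set 2 (vertical) for the 34 genes, coloured by role, over all tested genes in grey, with dashed lines at the all-gene medians and 127 genes beyond the axes not drawn. Bard1, Blm and Brca1 lie low in both sets and Fancc high in both, whereas Slx4, Brca2 and Fancm are low in set 1 only and Fancl, Chek1 and Mre11a are lower in set 2.

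The sets gave different ratios for many members. On the same side of the all-gene median in both lay 14 of the 34 (41.2%), against 49.3% of all tested genes. By limits chosen after the values were seen, the log2 ratios of 10 members differed between the sets by over 0.5. For 6 of them, Slx4, Brca2, Fancm, Bard1, Atm and Mus81, the lower ratio was that of set 1, and for 4, Fancl, Chek1, Mre11a and Eme1, that of set 2. The ratios of Brca1, Palb2, Xrcc2, Rbbp8, Top3a and Fancd2 agreed to within 0.1. How many of all tested genes met these limits was not counted, so the counts describe the members alone.

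These differences went with transcript length. Lengths were those of the longest protein-coding transcript in GENCODE M21, from 1691 bases for Fancf to 10724 for Brca2. Across the 34 genes, which share the 4 libraries and are not independent replicates, length had a Spearman rho of -0.47 with the log2 ratio of set 1, 0.15 with that of set 2 and -0.48 with the difference between them. Over the 9625 tested genes with a length the values were -0.40, 0.23 and -0.46, so the members shared this with genes in general.

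The 17 members longer than 3773 bases had median log2 ratios of -0.68 in set 1 and -0.38 in set 2, and 13 of them (76.5%) were lower in set 1 than in set 2, against 80.5% of all tested genes longer than that. The 17 shorter ones had medians of -0.30 and -0.43, and 6 (35.3%) were lower in set 1, against 44.2% of the shorter tested genes. Brca2 (10724 bases), Atm (9819) and Fancm (7775) were among the members with a much lower ratio in set 1, and Fancl (2724) and Eme1 (2444) among those with a lower one in set 2. Mre11a (5660), Mus81 (2067) and Chek1 (3797, just above the dividing length) went against this order. The ratios within pairs given above compare some genes of like length, such as Brca1 (6572) with Bard1 (5659) and Eme1 with Mus81, and some of unlike length, such as Nbn (2533) with Rad50 (5153). The part of length in them was not tested. With the trend on length removed from each set, a choice made after seeing the data, Brca1, Bard1 and Blm fell (limma adjusted p = 0.0154, 0.0137 and 0.00934), as did Chek2. These were 4 of the 34 members, in a fit where 1824 of 9625 tested genes fell.

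**Figure D4:**
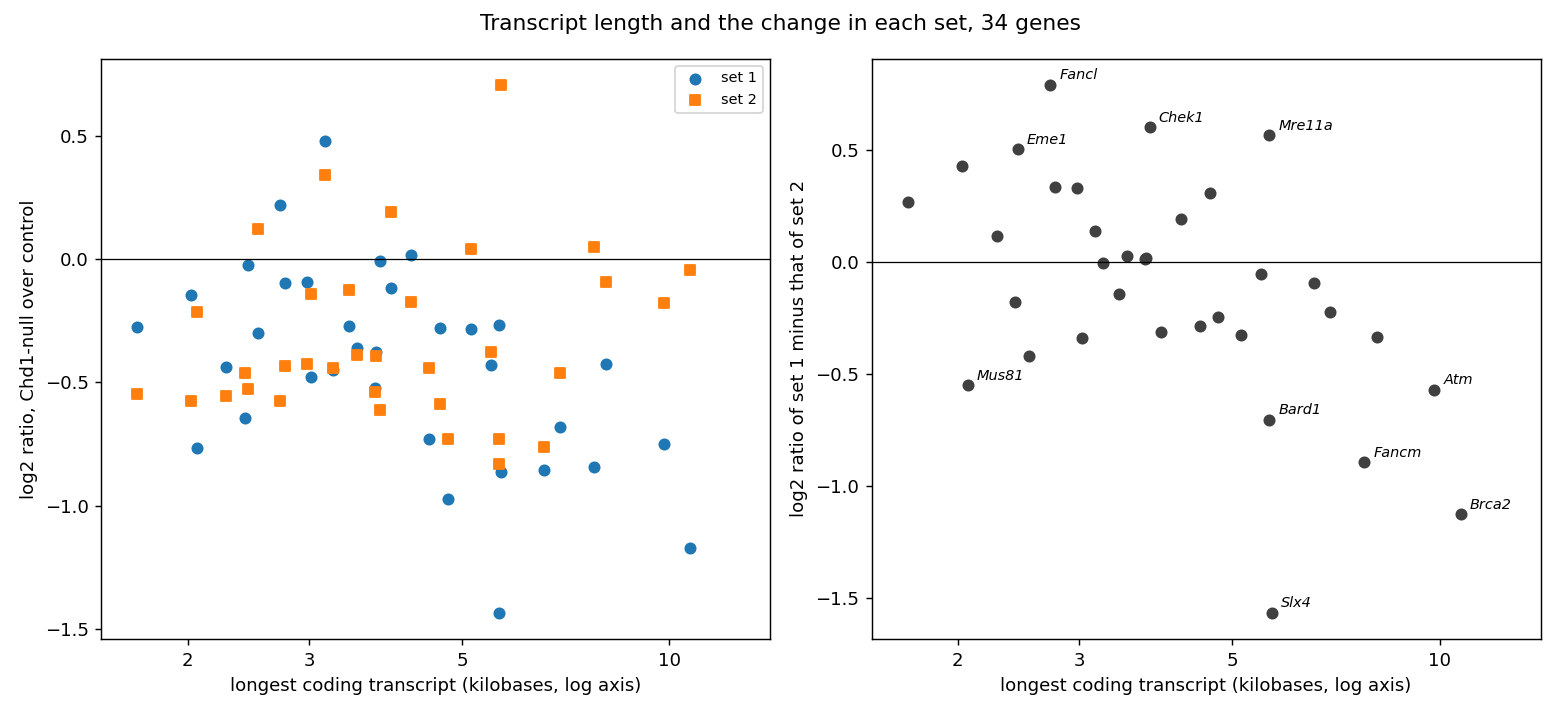
Length of the longest coding transcript (kilobases, log axis) against the log2 ratio of each set (left; circles set 1, squares set 2) and against the ratio of set 1 minus that of set 2 (right) for the 34 genes. Points of set 1 lie lower for long transcripts (rho -0.47), those of set 2 do not (rho 0.15), and the difference runs from 0.79 for Fancl to -1.57 for Slx4.

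Further genes of recombination, crosslink repair and checkpoint signalling were taken from a list of 62, of which 60 were tested and the other two, Atrip and Mtmr15, had no locus of their own name. Of the 60, 5 fell (8.33%, against 9.8% of all tested genes) and 0 rose (against 0.0682%). At an unadjusted p under 0.05 in limma were 19, all lower, against 2995 of all 10261 tested genes, 27 of them higher. The medians of the 60, -0.40 and -0.39, lay near those of the members.

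Those that fell belong to several steps. Mdc1, the adaptor that reads the damage mark on H2AX, fell to 4.29 FPKM from 13.5 in set 1, and to 5.35 from 7.28 in the other (log2 fold change -1.03, limma adjusted p = 0.0165). H2afx, the gene of that histone, fell from 212 to 161 and from 291 to 158 (-0.64, limma adjusted p = 0.00582). Apitd1, a histone-fold partner of Fancm, fell from 5.40 to 1.90 and from 13.0 to 6.37 (-1.24, limma adjusted p = 0.0081), with overlapping groups because the sets differed in level. Mad2l2, a subunit of a translesion polymerase that also limits resection, fell by 0.93 on the log2 scale (limma adjusted p = 0.0402), and the chromatin remodeler Hells by 0.53 (limma adjusted p = 0.0271). None of the 60 passed relative to the median gene in limma, with 3 at an unadjusted p under 0.05, against 645 of 10261 tested genes. With a mean of at least 5 FPKM required 0 of 49 passed on the deposited scale. Of these 49, 18 had an unadjusted p under 0.05 in limma, against 2321 of 6861 genes.

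Genes of neighbouring pathways were counted in the same way. Of 13 end-joining genes 0 fell in limma (against 9.8% of all tested genes) and 1 rose (against 0.0682%). The 1 was Nhej1, a ligation cofactor named here after its values were seen. Nhej1 had 11.2 and 5.83 FPKM in the controls of set 1 and set 2 and 18.3 and 10.3 in the Chd1-null libraries (limma adjusted p = 0.0445, log2 fold change 0.75). Its groups overlapped. Relative to the median gene it also rose (log2 fold change 1.15, limma adjusted p = 0.00721), as did 0.146% of all tested genes. The medians of the 13 were -0.43 and -0.22. Of 31 genes of replication licensing and the fork, which are expressed in the same phase of the cell cycle, 6 fell (19.4%, against 9.8% of all tested genes) and 0 rose, with medians of -0.31 and -0.44. Relative to the median gene 0 of the 31 fell in limma. Their median log2 change was -0.40, beside -0.41 for all tested genes. Their median level was 48.9 FPKM, against 9.07 for all tested genes, and the part of level in the share that fell was not tested. No difference between these lists and the members was tested.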

How the data were processed

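Each set had 1 deposited table of locus values, taken as FPKM made by the authors: per the submitters' processing notes, the build was mm9 and the tools included Cufflinks 2.2.0 with Cuffdiff and TopHat2 2.0.10, the header gives no unit, and the values are not whole. The scaling by ERCC transcripts, the annotation and any use of strand in counting were not given in the sources used here. The deposited ratio of Chd1-null over control matched the quotient of the value columns to within 4.97e-06. The lowest deposited value was 0.100, so lower loci were not analysed here.

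The tables were joined on gene symbol, leaving out unnamed, merged and repeated loci. Values were tested as log2(FPKM + 0.1) with limma 3.58.1 in R 4.3.3, with a variance trend and the set as a block, since each table pairs 1 control with 1 Chd1-null library (deviations of same-set libraries correlated across genes, r = 0.483). This leaves 1 residual degree of freedom. In the main fit, p-values measure the spread between the sets that genes of a similar level share, and not a gene's own. That spread may be technical. The method was run on simulated data. It recovered most changed genes if genes of a level shared one spread, and none if the spread differed from gene to gene. The first case is what the fit assumes, so it cannot test that assumption. All planted changes were larger than those of Brca1 and Blm, and no shift common to all genes was planted. The simulation therefore gives no recovery for changes of their size in data with such a shift. Alternatives were other pseudocounts, filters, variance priors and scalings, no block, each set left out, and removal of a trend on level or, chosen after seeing the data, on length. Promoters were from RefSeq (GRCm38.p6) and lengths from GENCODE M21. Members and lists were chosen with earlier results of these data known. Every member is named. Fold change, SE and adjusted p are given for members that passed and for the lowest and highest of each role, and values for other pathway genes that passed. A further pathway gene was taken off that list and is not reported here.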

Additional observations from a re-analysis of the deposited data

How the results depend on the processing

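The number of members that fell (3 of 34) went to 0 with one common prior variance, with no replicate block, with scaling to library totals and with the level trend subtracted. It was 2 with a mean of at least 5 FPKM, 3 with other pseudocounts, without a filter or with repeated loci summed, and 4 with the length trend subtracted, an alternative chosen after seeing the data. The counts of members that rose, and of those that fell or rose relative to the median gene, stayed at 0 under every alternative run. Of the other pathway genes 5 fell, against 0 with a mean of at least 5 FPKM, with one common prior variance, without the block in the pairing of libraries and with library totals, 1 with the level trend subtracted and 11 with the length trend subtracted. All 5 pass the filter of the first, and the causes of these changes were not tested. For all tested genes the 1006 that fell became 225 with a mean of at least 5 FPKM, 173 with the level trend subtracted, 40 with library totals (where 34 rose, against 7), 1824 with the length trend subtracted, and 0 with one common prior variance or no block.

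The members' median log2 change of -0.39 was -0.35 with a pseudocount of 1, -0.0187 with library totals and -0.35 with the length trend subtracted, and -0.43 to -0.40 with either set left out. Minus the median of all tested genes it was 0.01, and -0.10 to 0.0583 with either set left out. With library totals, which shift the median of all tested genes from -0.41 to -0.03, the log2 change of 14 members that had not passed turned above 0: Rad51d 0.17, Rad54l 0.0672, Rad50 0.25, Nbn 0.29, Rbbp8 0.0018, Rmi1 0.29, Fancb 0.11, Fance 0.0165, Fancg 0.11, Fancl 0.20, Slx4 0.29, Eme1 0.10, Atr 0.12 and Chek1 0.0676. With 1 set left out no test is possible. Read depth is unknown, so counting error could not be given.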
